A study of Mus musculus with 6 samples.

Results

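The TNF superfamily pairs membrane-bound or secreted ligands with cell surface receptors. Its genes were followed here in the 4434 line, murine melanoma cells, after 20 days of partial reprogramming. Members were taken by name: a probe set counted when the platform annotation gave it exactly 1 gene, whose symbol began with Tnfsf or Tnfrsf (1 receptor left out) or was Tnf, Lta, Ltb, Ltbr, Fas, Fasl, Cd27, Cd40, Cd40lg, Cd70, Eda, Edar, Eda2r or Traf with a single digit. That gave 45 genes on 78 probe sets, of 18193 genes measured: 14 ligands, 24 receptors, 6 TRAF adaptors and the antisense transcript Tnfsf13os. The rule used names only and no measured value. Of these genes, 24 had 1 probe set and 21 had several, and each gene was represented by its probe set with the highest mean.

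Cells of both groups carried an inducible lentiviral vector for Oct4, Sox2, Klf4 and blasticidin resistance and another for the doxycycline-dependent transactivator. The 3 + dox arrays hold cells given doxycycline, which the methods describe as selected with blasticidin. The 3 − dox arrays hold cells with both vectors that never received doxycycline. Effects of doxycycline, of selection and of the 3 factors therefore cannot be told apart. The study's statistics section speaks in general of independent experiments, but neither it nor the labels say so of these arrays, so p-values measure the spread between arrays, which may be technical. In these bulk samples fewer cells of a type and less RNA per cell cannot be told apart.

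Most ligands of the family are trimers, and a bound receptor recruits adaptors through its cytoplasmic tail. Receptors with a death domain, such as Fas, can start caspase activation. Others bind TRAF proteins and activate NF-κB and stress kinases, and decoy receptors bind ligand without passing on a death signal. In skin and in melanoma the family is known for its part in immune killing of tumour cells and in inflammatory signalling.

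The arrays set limits that hold for all values below. On the first principal component (63.2% of the variance) + dox 1 lay at −10.5, nearest to the − dox side, with + dox 2 and 3 at −41.9 and −54.4 and the − dox arrays between 30.7 and 39.6. On the component after it (20.0%) − dox 1 was at −40.7, with the other − dox arrays at 19.1 and 19.3. Of 8 melanocyte markers 0 were called, where 4.87% of all genes were, and with 8 genes a count of 0 lies near that share. The pigment genes Tyr (3.45 in + dox, 3.48 in − dox cells), Tyrp1 (3.80 and 3.69) and Mlana (3.56 and 3.52) were below the lower quartile of the arrays (3.84 to 3.90) in both groups. The other melanocyte markers read higher: the lineage factor gene Mitf averaged 6.47 in + dox and 7.23 in − dox cells (−0.76, adjusted p = 0.343), Sox10 6.34 and 6.23, Pmel 5.36 and 5.34, Slc45a2 4.92 and 5.02, and Dct 4.41 and 4.36. Among 34 measured markers of pigment and other cell types only Krt14, a basal keratin, was called (3.67 higher, adjusted p = 0.00173). Of its other probe sets 1 had the opposite sign, and the mean of all 3 gave 2.01 (limma adjusted p = 0.00514). The other keratinocyte markers Krt5, Epcam, Krt1 and Krt10 had −0.05, −0.10, 0.07 and 0.55. Among fibroblast markers Dcn had 0.85 (adjusted p = 0.0525) with no overlap, and passed in 4 alternatives. Lum, Thy1 and Pdgfra had 0.02, 0.03 and 0.04. Of 13 markers of T, NK, B and myeloid cells 0 were called, where 4.87% of all genes were, and with 13 genes a count of 0 lies near that share. Also 0 of them had an unadjusted p under 0.05, where 21.7% of all genes did. The levels of these markers summed on the linear scale ran between 408.5 and 495.5 for + dox, against 344.0 and 444.0 for − dox. Their part in the results below was not tested. Among the 6 myeloid markers the lysosomal gene Cd68 stood at 6.4, 7.06 and 7.12 in + dox arrays, against 7.14, 4.91 and 4.82 in − dox arrays (1.24, adjusted p = 0.323), and passed in 2 alternatives (lowest adjusted p 0.000107). The integrin gene Itgam stood at 3.51, 3.95 and 5.84 in + dox arrays, against 3.20, 3.26 and 3.33 in − dox arrays (1.17, adjusted p = 0.301), with no overlap. Ptprc, the pan-leukocyte marker, averaged 2.98 in + dox cells, against 2.87 in − dox cells, and Adgre1, Csf1r and Lyz2 had changes of 0.13, −0.02 and −0.20.

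The question put to the + dox and − dox groups was which ligands, receptors and adaptors changed with partial reprogramming. Values are log2 RMA levels, a change is + dox minus − dox on that scale, and a gene is called where limma's p, adjusted over all genes by the Benjamini-Hochberg method, is under 0.05. Of the 45 members 3 rose: the ligand gene Tnfsf9, the receptor gene Ltbr and the decoy receptor gene Tnfrsf22. That is 6.67% of the members, where 4.87% of all genes were called and 3.07% were called higher. By limma 0 members fell, where 1.8% of all genes were called lower. With so few calls the share lies near the background. At an unadjusted p under 0.05 there were 9 members (20.0%, against 21.7% of all genes). The groups did not overlap in 14 members (31.1%, against 26.9% of all genes), of which 11 were higher (24.4%, against 14.3% of all genes) and 3 lower in + dox arrays (6.67%, against 12.6%). The median change was 0.06 over the members and 0.01 over all genes, and 35 of the 45 had a change under 0.3 in size.

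**Figure D1:**
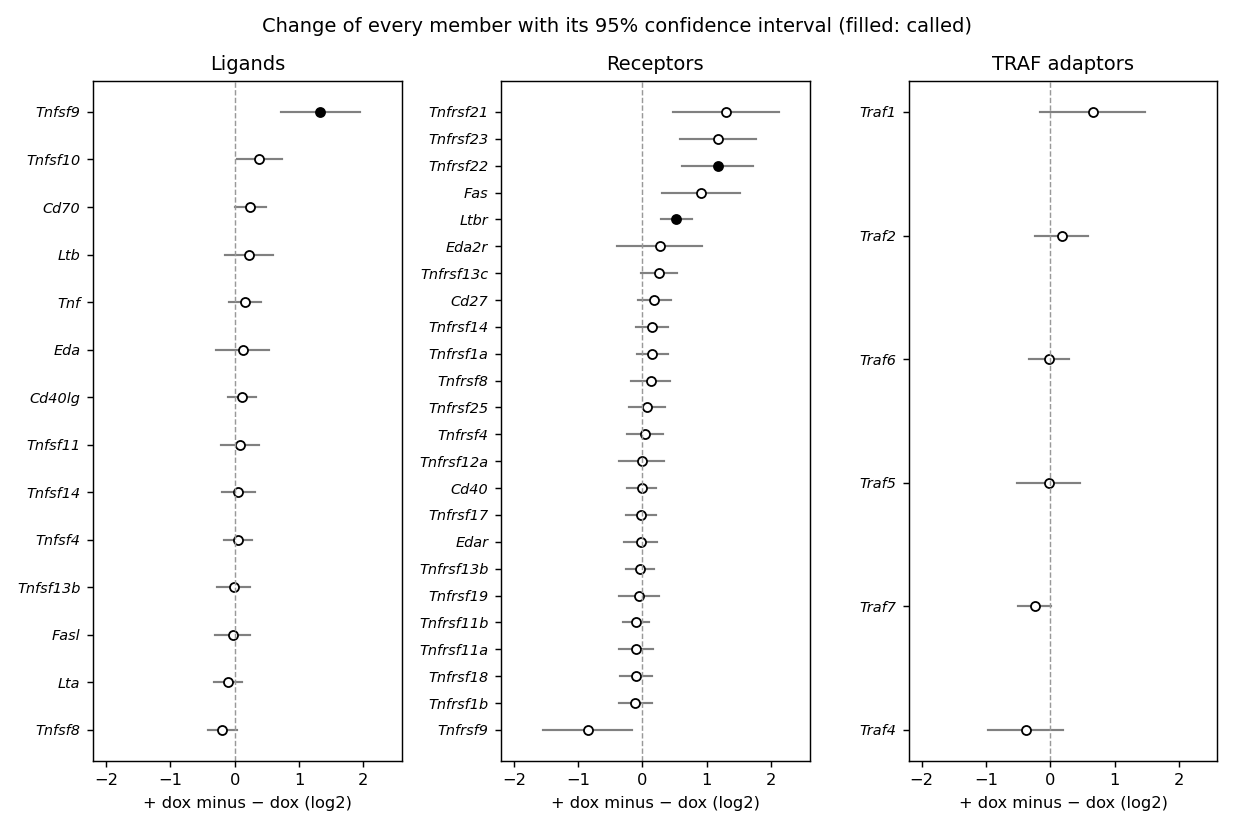
Change in + dox minus − dox cells (horizontal axis, log2) of the 14 ligands, 24 receptors and 6 TRAF adaptors (rows), with bars for the 95% confidence interval of the limma fit and filled points for called genes. Tnfsf9, Ltbr and Tnfrsf22 are filled, and 35 of the 45 members, Tnfsf13os included, lie within 0.3 of zero.

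Tnfsf9 was the only ligand called. It encodes the ligand of the receptor CD137, which co-stimulates T cells. Tnfsf9 stood at 7.81, 7.93 and 8.67 in + dox arrays 1, 2 and 3, against 6.59, 7.11 and 6.71 in − dox arrays 1, 2 and 3. Every + dox array was above every − dox array, with + dox 3 the highest. The rise was 1.33 (SE 0.26, 2.52-fold, limma adjusted p = 0.0406), and 1 probe set covers the gene. Its adjusted p ran from 0.0130 to 0.149 over the alternatives. The call was lost without + dox 2 (1.44, adjusted p = 0.118), + dox 3 (1.07, 0.0818), − dox 1 (1.23, 0.0586), − dox 2 (1.49, 0.0901) or − dox 3 (1.29, 0.149).

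Tnfsf10, the gene of the death ligand TRAIL, did not pass. It stood at 4.53, 5.0 and 5.0 in + dox arrays, against 4.44, 4.5 and 4.44 in − dox arrays. The groups did not overlap, but + dox 1 lay next to the − dox arrays. The change was 0.38 (SE 0.15, adjusted p = 0.196, range over the alternatives 0.0184 to 0.474), and without + dox 1 it was 0.54 (adjusted p = 0.0290).

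The other 12 ligands had changes between −0.19 (Tnfsf8, the CD30 ligand gene) and 0.24 (Cd70, the CD27 ligand gene), and 0 passed. For Tnf itself, the founding cytokine of the family, the arrays read 5.10, 5.15 and 4.95 in + dox and 4.88, 4.82 and 5.01 in − dox cells. These overlap, and the interval of the change ran from −0.08 to 0.41. Fasl, the ligand gene of Fas, had −0.03 (interval −0.31 to 0.25). The lymphotoxin genes Lta and Ltb had −0.10 and 0.22, and Eda, the ectodysplasin gene of hair and tooth development, had 0.12. The co-stimulatory ligand genes Tnfsf4, Cd40lg and Tnfsf14 had 0.05, 0.12 and 0.06, and the gene of the osteoclast factor RANKL, Tnfsf11, had 0.08. Tnfsf13b, which encodes the B cell factor BAFF, had −0.02. Of all members 25 had both group means under the lowest array median (5.33), 12 of the 14 ligands among them, and a change at such a level is understated where a probe set reads mostly background. Detection calls were not used here.

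Among the receptors, Ltbr and Tnfrsf22 were called. Ltbr encodes the lymphotoxin β receptor, which binds the lymphotoxin heterotrimer and Tnfsf14 and activates NF-κB. It stood at 9.34, 9.33 and 9.56 in + dox arrays, against 8.86, 8.88 and 8.91 in − dox arrays. Both groups were tight and did not overlap. The rise was 0.53 (SE 0.10, 1.44-fold, adjusted p = 0.0399, range over the alternatives 0.0263 to 0.139), under 2-fold. It held without + dox 1 (0.56, adjusted p = 0.0409) and was lost without + dox 2 (0.57, 0.115), + dox 3 (0.45, 0.130), − dox 1 (0.52, 0.0568), − dox 2 (0.53, 0.120) or − dox 3 (0.54, 0.139). With a trend in eBayes the adjusted p was 0.0699, and taking each gene's most variable probe set 0.0512.

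The promoter window of Ltbr is shown because Ltbr was called. It comes from the RefSeq promoter table (build GRCm38.p6), which matched 37 of the 45 members by symbol in 41 windows. A window runs from 250 bases before to 50 after the start of the gene, 5′ to 3′ on the gene's strand. Capitals mark matches to motifs linked to factors in this experiment, searched on both strands: the octamer ATGCAAAT for Oct4, AACAANG for Sox2, GGGNGTGG for Klf4 and the κB consensus for NF-κB. The Ltbr window lies on the minus strand of chromosome 6 (chr6:125313836-125314135) and holds 2 matches to the Klf-type motif, both on the opposite strand.
Ltbr: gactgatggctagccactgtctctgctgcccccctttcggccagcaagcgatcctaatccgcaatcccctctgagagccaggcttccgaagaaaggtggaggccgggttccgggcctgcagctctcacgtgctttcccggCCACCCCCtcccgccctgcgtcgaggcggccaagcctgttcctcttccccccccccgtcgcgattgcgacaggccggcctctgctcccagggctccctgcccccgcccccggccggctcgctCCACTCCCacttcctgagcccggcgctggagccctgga

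A Klf-type match was found in 13 of the 41 member windows (12 genes) and in 17.6% of all 32851 windows. The κB consensus was found in 3 member windows (Ltb, Tnfrsf8 and Tnfrsf9) and in 4.51% of all, the octamer in 1 (Eda2r) and in 1.74%, and the Sox-type motif in 2 (Tnfrsf25 and Traf1) and in 14.1%. A match describes letters only, and binding was not measured here.

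Tnfrsf22 and Tnfrsf23 encode mouse receptors that bind TRAIL and lack a functional death domain. Tnfrsf22 stood at 7.79, 8.25 and 8.39 in + dox arrays, against 7.26, 7.09 and 6.58 in − dox arrays. The groups did not overlap, and + dox 1 was again the lowest of its group. The rise was 1.17 (SE 0.23, 2.24-fold, adjusted p = 0.0421, range over the alternatives 0.00295 to 0.155). Its other 2 probe sets had changes of 0.78 and 1.09, and with the mean of all 3 the change was 1.01 (adjusted p = 0.0790). Taking the most variable probe set gave 1.09 (0.109). The call held without + dox 1 (1.34, 0.0222) or − dox 1 (1.31, 0.0307) and was lost without + dox 2 (1.11, 0.155), + dox 3 (1.04, 0.153), − dox 2 (1.22, 0.114) or − dox 3 (0.97, 0.125).

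Tnfrsf23 lay just outside the threshold. It stood at 7.70, 8.26 and 8.21 in + dox arrays, against 7.28, 6.92 and 6.45 in − dox arrays, again with no overlap. The change was 1.17 (SE 0.25, adjusted p = 0.0505), with a range over the alternatives of 0.00190 to 0.182. It passed without + dox 1 (1.35, adjusted p = 0.0307) or − dox 1 (1.37, 0.0254). Both genes lie on chromosome 7 and are closely related, and 1 further probe set of the array is annotated to both and was left out. Whether their probe sets read each other's transcripts was not tested.

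**Figure D2:**
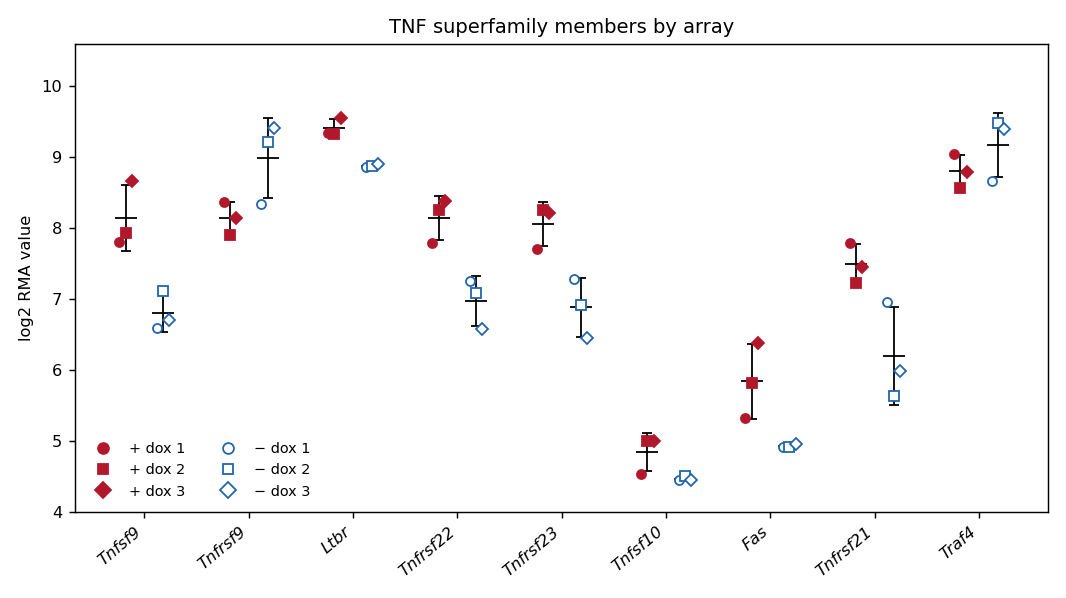
Log2 RMA value (vertical axis) of 9 members (horizontal axis) in each array: filled red symbols are + dox, open blue symbols − dox, and black bars show mean ± SD (n = 3). Ltbr spans 9.33 to 9.56 in the + dox group, against 8.86 to 8.91 in the − dox group, and − dox 1 stands off from − dox 2 and 3 in Tnfrsf9, Tnfrsf21 and Traf4.

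Of the death domain receptor genes, Fas and Tnfrsf21 were higher in every + dox array but did not pass. Others of this class, Tnfrsf1a, Tnfrsf25 and Edar, had changes of 0.15, 0.07 and −0.03, and their groups overlapped. Fas, the receptor of Fas ligand, stood at 5.32, 5.81 and 6.38 in + dox arrays, against 4.91, 4.91 and 4.96 in − dox arrays. The − dox arrays were nearly equal and the + dox arrays spread over a whole unit. The change was 0.91 (SE 0.25, interval 0.30 to 1.52, adjusted p = 0.0972), and over the alternatives the adjusted p ran from 0.00864 to 0.249. Without + dox 1 the change was 1.17 (adjusted p = 0.0196).

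The promoter window of Fas, on the plus strand of chromosome 19 (chr19:34290409-34290708), holds 1 Klf-type match at its start. It is shown because Fas passed without + dox 1 and its window holds a match. Tnfsf10 and Tnfrsf23 also passed without + dox 1, but their windows hold no match to the motifs searched and are not shown. The same is true of the windows of Tnfrsf21 and Traf4, which passed in other settings. The promoter table had no window for Tnfsf9 or Tnfrsf22.
Fas: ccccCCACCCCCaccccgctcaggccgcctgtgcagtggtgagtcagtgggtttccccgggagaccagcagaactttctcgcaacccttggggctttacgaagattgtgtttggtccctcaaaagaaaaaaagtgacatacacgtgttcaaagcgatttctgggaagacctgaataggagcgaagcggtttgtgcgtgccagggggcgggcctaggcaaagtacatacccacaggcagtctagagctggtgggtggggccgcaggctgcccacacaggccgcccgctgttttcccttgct

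Tnfrsf21 encodes death receptor DR6. It stood at 7.79, 7.23 and 7.45 in + dox arrays, against 6.96, 5.63 and 5.99 in − dox arrays, with − dox 1 far above the other − dox arrays. The change was 1.30 (SE 0.35, adjusted p = 0.0879, range over the alternatives 0.00157 to 0.247), and without − dox 1 it was 1.68 (adjusted p = 0.0119). Its other probe set had 0.77 (SE 0.17).

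Tnfrsf9, the gene of CD137, had the largest change downwards among the members. It stood at 8.37, 7.90 and 8.14 in + dox arrays, against 8.34, 9.22 and 9.41 in − dox arrays. The groups overlapped through − dox 1, which lay at the + dox level. The change was −0.85 (SE 0.29, adjusted p = 0.151, range over the alternatives 0.00168 to 0.376). Without − dox 1 it was −1.18 (adjusted p = 0.0183). A second probe set had −1.28 and the third, at a low level, −0.03.

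Tnfrsf9 has 2 windows in the promoter table. The window further along the plus strand of chromosome 4 (chr4:150927749-150928048) is shown for its κB matches: 3 matches overlap in 1 stretch, in capitals. The other window holds no match to the motifs searched.
Tnfrsf9: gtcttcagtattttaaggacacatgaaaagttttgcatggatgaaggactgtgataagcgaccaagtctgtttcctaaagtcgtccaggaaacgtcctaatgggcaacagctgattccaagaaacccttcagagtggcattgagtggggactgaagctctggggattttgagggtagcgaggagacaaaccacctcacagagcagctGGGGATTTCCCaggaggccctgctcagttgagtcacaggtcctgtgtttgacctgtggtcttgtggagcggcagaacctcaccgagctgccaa

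The other 18 receptors had changes between −0.11 and 0.27, and 0 passed. The TNF receptor genes Tnfrsf1a and Tnfrsf1b had 0.15 (interval −0.09 to 0.40) and −0.11 (interval −0.37 to 0.15). In the other probe set of Tnfrsf1b (−0.26) the groups did not overlap (limma p adjusted over probe sets 0.256). Tnfrsf12a, whose product Fn14 binds the ligand TWEAK, had −0.01 (interval −0.36 to 0.34), with 12.06 ± 0.17 in + dox and 12.07 ± 0.21 in − dox cells (SD, n = 3 each). Cd40, which many antigen-presenting cells use, had −0.01 (interval −0.24 to 0.21). Its other probe sets had −0.24, with no overlap, and −0.06 (limma p adjusted over probe sets 0.329 and 0.915). The ectodysplasin receptor genes Edar and Eda2r had −0.03 and 0.27, and the RANKL receptor gene Tnfrsf11a and the gene of its decoy osteoprotegerin, Tnfrsf11b, had −0.10 each. The receptor genes best known from lymphocytes had small changes that did not pass, of 0.04 for Tnfrsf4, −0.11 for Tnfrsf18, 0.13 for Tnfrsf8, 0.07 for Tnfrsf25, 0.15 for Tnfrsf14 and 0.18 for Cd27. The BAFF receptor genes Tnfrsf13b, Tnfrsf13c and Tnfrsf17 had −0.03, 0.26 and −0.03, and Tnfrsf19, a receptor gene of epithelial progenitors, had −0.06. Other probe sets of Tnfrsf19, at a low level, had 0.24, with no overlap, and −0.09. In Cd27, Tnfrsf13b, Tnfrsf17 and the ligand gene Cd70 both group means lay under the lower quartile of every array.

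Of the 6 TRAF genes 0 passed and 0 had an unadjusted p under 0.05, where 4.87% and 21.7% of all genes did. With 6 genes, counts of 0 lie near these shares. TRAF proteins link receptors to kinases, and several are ubiquitin ligases. Traf1, itself a known NF-κB target, stood at 9.57, 10.25 and 10.05 in + dox arrays, against 8.56, 9.79 and 9.55 in − dox arrays. These overlap, and the change was 0.66 (interval −0.17 to 1.48, adjusted p = 0.339), with the opposite sign in its other probe set (−0.38). Traf4 read 9.04, 8.57 and 8.79 in + dox arrays, against 8.66, 9.48 and 9.40 in − dox arrays, and had −0.38 (adjusted p = 0.440, range over the alternatives 0.00855 to 0.720). Traf4 passed in 1 alternative, without both arrays numbered 1 (−0.76). Traf2, Traf5, Traf6 and Traf7 had 0.18, −0.03, −0.02 and −0.24. Of the probe sets that represent these genes, only that of Traf7 had groups that did not overlap (16.7%, against 26.9% of all genes). The groups also did not overlap in another probe set of Traf4 (−0.49), Traf5 (−0.21) and Traf6 (0.35). Their limma p-values adjusted over probe sets were 0.140, 0.308 and 0.121. The remaining probe sets of Traf6 had changes of 0.0, −0.06 and −0.10. The antisense transcript Tnfsf13os, which is no ligand, had −0.02, and −0.46 in its other probe set.

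Ligands and receptors were set side by side in 29 known pairs, of which 24 had both partners measured. In 4 of these pairs 1 partner was called (the ligand in 1, the receptor in 3), and in 0 both were. The calls come from 3 genes, as Ltbr stands in the pairs with Ltb and with Tnfsf14. With 4.87% of all genes called, 0 of 24 pairs with both partners called lies near the background. In the pair of Tnfsf9 with Tnfrsf9 the ligand rose by 1.33 and the receptor had −0.85. In the pairs of Tnfsf10 with Tnfrsf22 and Tnfrsf23 the ligand had 0.38 and the receptors 1.17 each, while the third TRAIL-binding decoy in the list, Tnfrsf11b, had −0.10. Ltbr rose by 0.53, with its ligand genes Ltb at 0.22 and Tnfsf14 at 0.06. Fas had 0.91 and Fasl −0.03. In the other 17 pairs no partner had a change over 0.27 in size. Whether ligand and receptor of a pair changed by different amounts was not tested. Tnfsf12, Tnfsf13, Tnfsf15, Tnfsf18, Tnfrsf26 and Traf3 were not analysed here, so the 5 pairs that hold one of these ligands have no ligand value.

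**Figure D3:**
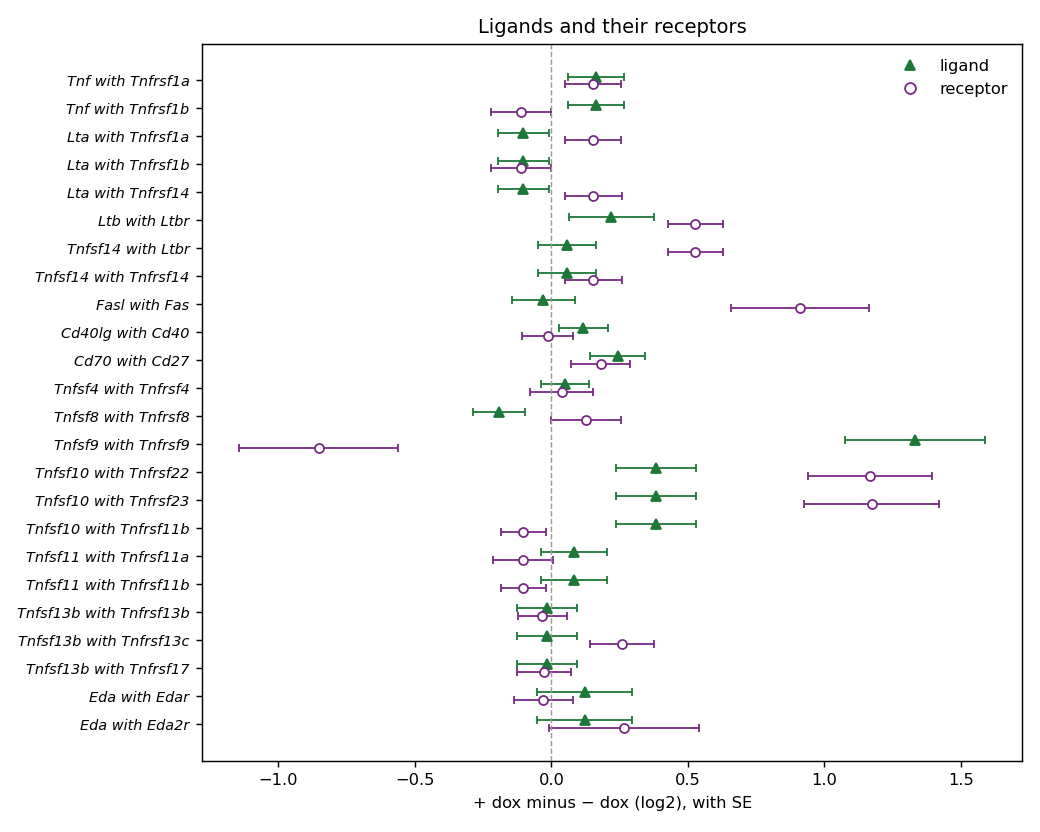
Change in + dox minus − dox cells (horizontal axis, log2, bars are the SE of the limma fit) for the 24 pairs with both partners measured (rows); green triangles are ligands and open purple circles receptors. The pair of Tnfsf9 (1.33) with Tnfrsf9 (−0.85) lies furthest apart.

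The genes downstream of the receptors were taken from 5 lists of 100 genes, 91 of them measured, of which 9 rose and 1 fell (11%, against 4.87% of all genes). The lists were chosen with earlier results of these data known. Of 28 NF-κB signalling genes 2 rose and 0 fell (7.14%, against 4.87% of all genes), with a median of 0.01. Rel, an NF-κB subunit gene, stood at 6.88, 7.09 and 7.04 in + dox arrays, against 5.48, 6.0 and 5.93 in − dox arrays (1.2, SE 0.16, adjusted p = 0.0158). Tnip1, whose product restrains NF-κB signalling together with A20, stood at 10.48, 10.93 and 11.08 in + dox arrays, against 9.20, 9.79 and 9.66 in − dox arrays (1.28, SE 0.21, adjusted p = 0.0284). No array overlapped between the groups in either gene. Leaving out + dox 2, + dox 3, − dox 2 or − dox 3 ended both calls, at most at 0.0773 (Rel) and 0.121 (Tnip1).

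Of 18 death receptor signalling genes 3 rose and 0 fell (16.7%, against 4.87% of all genes), with a median of 0.21 (0.01 over all genes). Cflar, whose product c-FLIP blocks caspase-8 at death receptors, stood at 9.60, 10.25 and 10.29 in + dox arrays, against 8.65, 8.32 and 8.41 in − dox arrays (1.59, SE 0.21, 3.0-fold, adjusted p = 0.0154; 1 of its other probe sets had the opposite sign). Mlkl, the executor of necroptosis, rose by 0.79 (SE 0.14, adjusted p = 0.0300), and Bak1, a mitochondrial pore protein gene, by 0.96 (SE 0.19, adjusted p = 0.0455). By known role, 1 of the 3 blocks and 2 carry out cell death. Leaving out 1 of + dox 2, + dox 3, − dox 2 and − dox 3 ended the calls of Cflar and Mlkl (highest adjusted p 0.0808 and 0.128), and leaving out any 1 of the 6 arrays ended that of Bak1 (highest 0.136).

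Of 15 TRAF partners and receptor adaptors 0 were called, where 4.87% of all genes were. At an unadjusted p under 0.05 there were 5 of the 15, where 21.7% of all genes were. The kinase gene Map2k4 had 0.49 (adjusted p = 0.0769) and Traf3ip1 −0.42 (0.0811). Among 5 genes of ligand and receptor shedding Timp3 rose (20.0%, against 4.87% of all genes). Timp3 encodes an inhibitor of the TNF-releasing protease ADAM17 and stood at 8.94, 6.84 and 8.01 in + dox arrays, against 5.22, 4.78 and 4.51 in − dox arrays (3.09, SE 0.51, 8.53-fold, adjusted p = 0.0271). The + dox arrays spread widely but stayed above all − dox arrays. Leaving out + dox 3, − dox 2 or − dox 3 ended its call, with 0.115 the highest adjusted p. Adam17 had −0.53 (adjusted p = 0.121).

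Of 25 genes known as targets of TNF and NF-κB 3 rose and 1 fell (16.0%, against 4.87% of all genes). Their median was 0.15 (0.01 over all genes). Ptgs2, the gene of the prostaglandin enzyme COX-2, stood at 8.93, 9.41 and 9.53 in + dox arrays, against 5.47, 4.59 and 4.58 in − dox arrays (4.41, SE 0.28, 21.3-fold, adjusted p = 0.00113). The monocyte chemokine genes Ccl7 and Ccl2 rose by 3.80 (14-fold, adjusted p = 0.000439) and 2.77 (6.84-fold, 0.00426). Ptgs2, Ccl7 and Ccl2 passed whichever array was left out. Ccl5, a T cell chemokine gene, went the other way, with 6.83, 7.08 and 7.36 in + dox arrays, against 10.18, 8.93 and 9.13 in − dox arrays (−2.32, SE 0.34, adjusted p = 0.0190). Ccl5 lost its call when 1 of + dox 2, + dox 3, − dox 2 and − dox 3 was left out (highest adjusted p 0.0891). These genes answer to many signals, and 21 of the 25 did not pass.

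**Figure D4:**
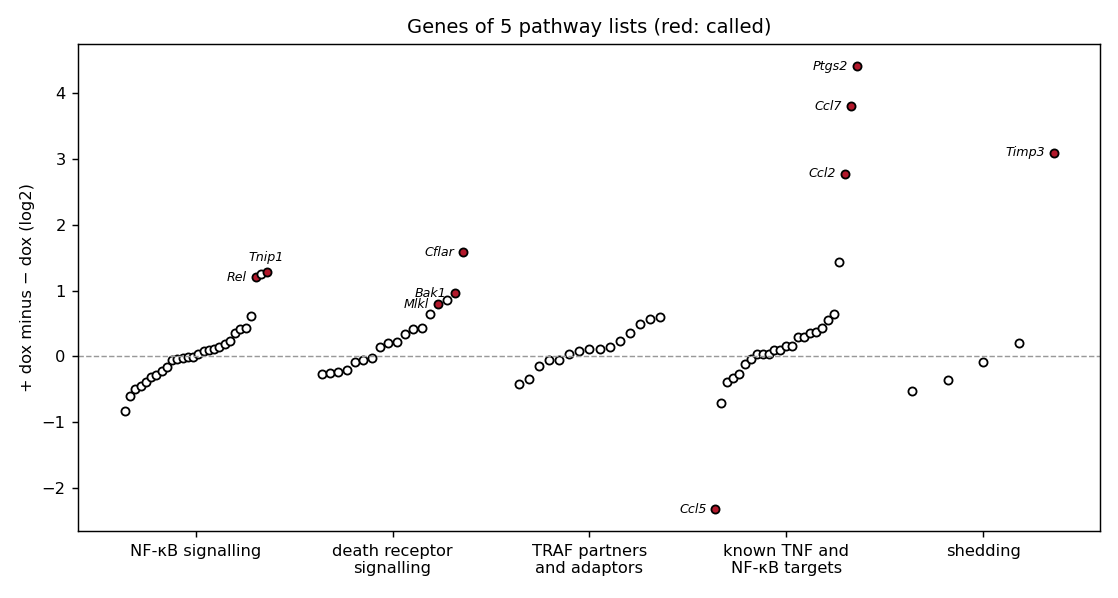
Change in + dox minus − dox cells (vertical axis, log2) of the 91 measured genes of 5 pathway lists (horizontal axis), sorted by change within each list; red points are called genes, with their names. Ptgs2 (4.41) and Ccl7 (3.80) lie highest and Ccl5 (−2.32) lowest.

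The calls of members moved with single arrays, and so did those of all genes. There were 6 rises among the members without + dox 1, where 9.07% of all genes were called, and 3 rises and 1 fall without − dox 1, where 6.27% were. Without any 1 of the other 4 arrays 0 members were called, and of all genes between 0.649% and 0.923%. Without both arrays numbered 1 there were 7 rises and 2 falls, with 20.1% of all genes called, so that share of the members lies at the background. Of the 45 members 31 kept their sign whichever array was left out and 14 did not, among them Traf2, Traf5, Fasl, Tnfsf11 and Tnfrsf12a. The 9 members in the plot by array kept theirs, but they were chosen for passing in some setting.

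**Figure D5:**
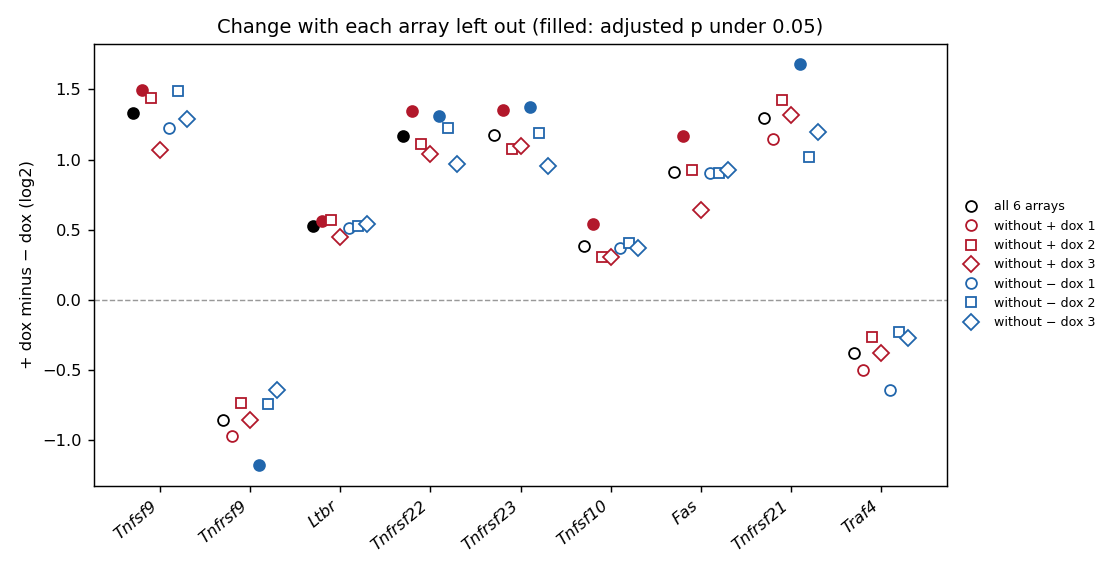
Change in + dox minus − dox cells (vertical axis, log2) of 9 members (horizontal axis) with all 6 arrays (black) and with each + dox (red) or − dox (blue) array left out; filled symbols have an adjusted p under 0.05. Fas ranges from 0.64 without + dox 3 to 1.17 without + dox 1, and Tnfrsf9 from −1.18 without − dox 1 to −0.64 without − dox 3.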

How the data were processed

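Total RNA of 3 + dox and 3 − dox samples was hybridised to Affymetrix mouse arrays, and samples were grouped by their labels. The deposited values are log2 expression values, which the authors made from scanner files by RMA normalisation in Chipster. Its version is not given in the sources used here, nor are the probe set definitions. That the scale is log2 was read from the range of the values (2.08 to 14.44). Of 45101 probe sets 0 had a missing value. Array controls (64) and probe sets with several genes (932) or no listed gene (9160) were left out, and 34945 with 1 gene remained. Symbols came from the platform annotation of 2016, and Entrez identifiers matched to the RefSeq table of GRCm38.p6 changed 0 of them.

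The + dox and − dox arrays were tested against each other by limma (version 3.58.1, R version 4.3.3; lmFit, then eBayes, two-sided, all 6 arrays, no term but group), with adjustment over all 18193 genes. Intervals are 95% confidence intervals of the fit. The number of arrays limits the precision. The test was checked on simulated data with known changes and noise drawn independently for each gene and array. Such data do not cover differences shared by a whole array.

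Values of every array are given for members called in the main setting or any alternative, and for those with a change of at least 0.5 and groups that do not overlap. Tnf and Traf1 were added after their values were seen. Of each pathway list the called genes are named (up to 4), or the 2 with the smallest p. The members, lists and alternatives were chosen with earlier results of these data known, and the motifs after the values were seen.

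Settings tried as alternatives were a block for the replicate number, the mean of all probe sets or the probe set of largest variance per gene, probe sets in place of genes, filters on the dimmest 20% and 40% of genes, eBayes with trend or robust settings, quantile normalisation, median centring, each array left out in turn, both arrays numbered 1 left out, an adjusted threshold of 0.01, and a 2-fold limit with an unadjusted p under 0.05.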

Additional observations from a re-analysis of the deposited data

How the results depend on the processing

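Calls over all genes also differed between settings. They were 886 (4.87%) in the main setting, 303 (1.67%) with the replicate block, 859 (4.72%) with the probe set of largest variance, 128 (0.704%) at a threshold of 0.01, 3649 (20.1%) without both arrays numbered 1, and 118 to 1650 with 1 array left out. The count of members that rose (3) was 0 with the replicate number as a block, 1 with the probe set of largest variance, 0 at an adjusted threshold of 0.01, 7 without both arrays numbered 1 and 0 to 6 with 1 array left out. The count that fell (0) was 2 without both arrays numbered 1 and 0 to 1 with 1 array left out. In the other settings 2 to 4 members rose and 0 fell. Of the pathway genes 9 rose, with 7 under the replicate block, 26 without both arrays numbered 1, 3 at a threshold of 0.01 and 3 to 14 with 1 array left out. The 1 fall became 0 with the replicate block, 4 without both arrays numbered 1, 0 at 0.01 and 0 to 2 with 1 array left out. The cause was not tested. The labels do not say that a number pairs arrays, so the arrays were treated as unpaired. Same-numbered arrays did not deviate together (correlations of −0.12, −0.22 and 0.08). Under the block limma's adjusted p was 0.0639 for Cflar, 0.0829 for Mlkl and 0.0677 for Ccl5. Of the 45 members 14 turned sign when 1 array was left out. Over the 23 genes named by the rules above and all settings 0 changes turned sign. Those 23 were chosen for passing in some setting or for a small p, which favours a stable sign. Of the values, 347 kept their side of the threshold, 69 lost the call and 19 gained one. Fas and Tnfsf10 fell under the filter on the dimmest 40% of genes and have no value there.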
